A study of Mus musculus with 32 samples.

Results

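The experiment described here is the effect of sunitinib in small bulk tumours, measured on 8 of the 32 arrays of the study. Its members were taken from the sample labels alone: 2 mice treated with sunitinib and 2 vehicle mice whose tumours were removed at day 9, and 2 sunitinib and 2 vehicle mice whose tumours were removed at 600 mm3. All 8 were 8-week-old female Balb/C mice carrying 4T1-Luc cells, a luciferase-marked line of 4T1, a mouse mammary carcinoma, implanted in the third mammary fat pad. Treatment began after 1 week of growth, with sunitinib at 40 mg/kg in PBS with DMSO, or with the vehicle. The labels number the mice 1 and 2 at day 9 and 3 and 4 at 600 mm3 within each treatment, so each array is a separate mouse. They do not say from what event day 9 is counted, nor how long the tumours taken at 600 mm3 had been treated. The small sunitinib mice are labelled sensitive up to day 8, and the vehicle mice carry no such grade. Whole tumour is the labelled material. The protocol text, the same for every sample of the study, describes digestion and selection of PECAM-1-positive cells, with the remaining digested tissue as bulk.

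Sunitinib is an inhibitor of receptor tyrosine kinases. It blocks the VEGF receptors, through which VEGF drives endothelial cells to sprout and survive, the PDGF receptors, which hold pericytes to vessels and act in fibroblasts, and KIT, CSF1R, FLT3 and RET. Loss of these signals is known to prune tumour vessels, and CSF1R carries the survival signal of macrophages. In bulk tissue a transcript's level joins the number of cells that make it and the amount each cell holds, and fewer cells of a type and less RNA per cell cannot be told apart.

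All 8 arrays were hybridised on 1 slide, and on each between 67.2% and 79.7% of probes were well above background. No spot was saturated. One index of the array position on the slide separated sunitinib from vehicle arrays, so position and treatment cannot be told apart. Levels below are on a log2 scale, relative to the signal that 75% of an array's probes did not exceed, so a level of 0 is a probe at that point and a difference of 1 is a doubling. Arrays of the same group correlated at 0.976 to 0.989 and arrays of different groups at 0.962 to 0.984. The first principal component held 33.7% of the variance and separated day 9 from 600 mm3. The component after it held 21.8% and set apart the vehicle tumours at 600 mm3, which scored -83.7 and -67.3 while every other array but sunitinib day 9 mouse 2, at -34.7, scored above 0. Tumour markers were bright on every array: a list of 16 tumour epithelial genes, with keratins, claudins and Epcam, had a mean level between 3.31 and 4.07. The endothelial, mural, fibroblast and leukocyte lists were measured as well. Skeletal muscle genes were also bright at day 9, with list means of 3.38 and 2.40 with sunitinib and 2.43 and 4.32 with vehicle. In vehicle mouse 2 of day 9 the muscle mean was above the epithelial mean, 3.90. The muscle means at 600 mm3, given below, were lower.

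Averaged over both stages, no gene passed the test. Limma, with 1 mean for each of the 4 groups and Benjamini-Hochberg adjustment over 17443 named genes and 21507 unnamed probes, called 0 of 38950 features (0%), with 2773 at an unadjusted p under 0.05 and a smallest adjusted p of 0.120. At day 9, 1 feature passed (0.00257%), an unnamed probe that was lower with sunitinib (adjusted p = 0.0349). At 600 mm3, 112 features passed (0.288%), 59 higher (0.151%) and 53 lower (0.136%), of which 93 were named genes (0.533% of those tested), 52 of them higher (0.298%) and 41 lower (0.235%). The effect differed between the stages for 18 features (0.0462%), with a higher effect at 600 mm3 for 15 (0.0385%) and a lower one for 3 (0.0077%), among them 14 named genes (0.0803%). With the mouse number as a block, 0 features passed at 600 mm3 (smallest adjusted p 0.0657) and 0 for the difference of stages (smallest adjusted p 0.147). That fit left 2 residual degrees of freedom against 4 in the main fit. Features at an unadjusted p under 0.05 numbered 5008 with the block against 4270 at 600 mm3, and 6102 against 5158 for the difference of stages. The count at 600 mm3 also fell to 0 without vehicle mouse 3, to 3 without either sunitinib mouse 3 or vehicle mouse 4, and to 5 without sunitinib mouse 4, while it was 296 without either sunitinib mouse of day 9.

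The effects at the stages were only weakly related, and inversely. Across the 17443 named genes the difference at day 9 and the difference at 600 mm3 had a Pearson correlation of -0.112 and a Spearman correlation of -0.199, between different mice and over genes that are not independent. The median difference of all named genes was 0.016 at day 9 and 0.038 at 600 mm3. With only 2 arrays a side, groups without overlap were common: at day 9 both sunitinib arrays were above both vehicle arrays for 20.6% of named genes and below for 14.7%, and at 600 mm3 above for 28.3% and below for 24.8%. An exact permutation test within stages cannot give a p below 0.0556 here, so single genes rest on the fit across all features.

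**Figure D1:**
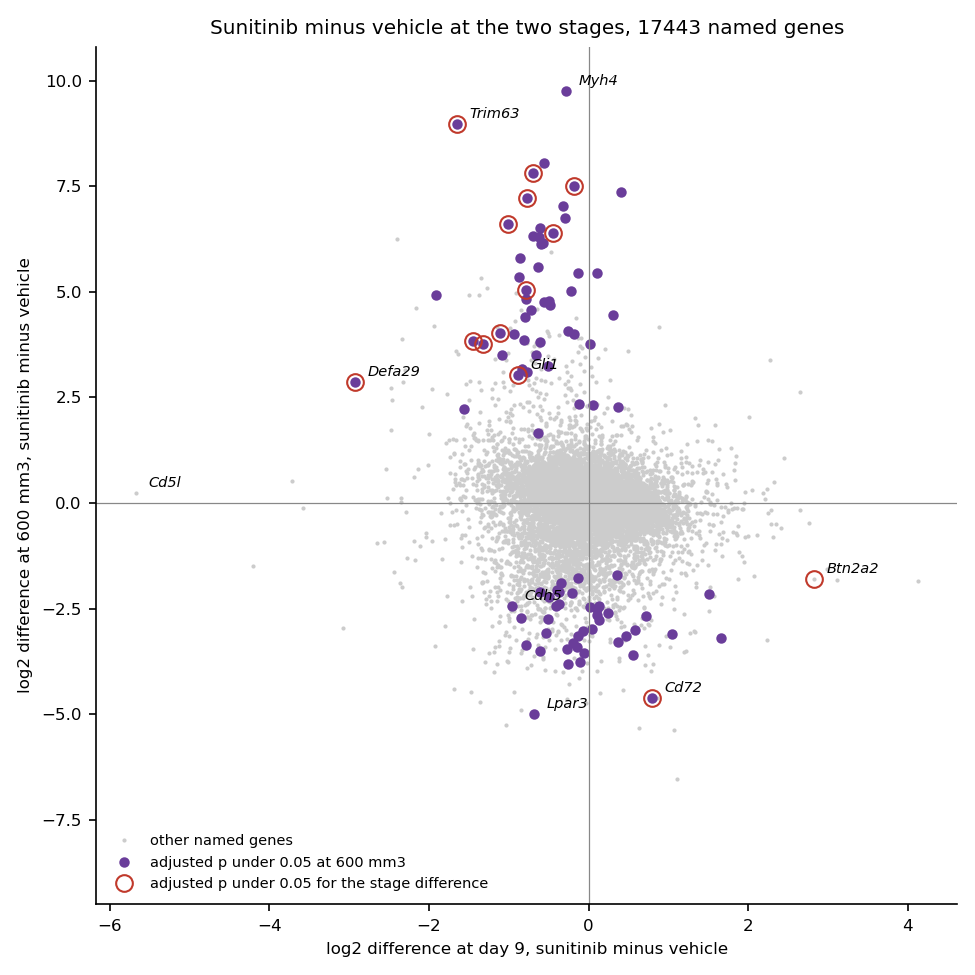
Sunitinib minus vehicle difference (log2) at day 9 (x axis) and at 600 mm3 (y axis) for 17443 named genes, each point a gene. Purple points passed the test at 600 mm3 and red rings passed the test of the difference between stages. Of the 93 purple points, 52 lie above 0 and 41 below it on the y axis, and 12 of the 14 ringed genes have the higher effect at 600 mm3.

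The largest rises at 600 mm3 by log2 difference were in genes of skeletal muscle. Of 17 skeletal muscle genes tested, 15 were above the vehicle arrays without overlap at 600 mm3 (28.3% of all named genes were) and 6 passed the test, all higher (0.298% of named genes): Acta1, Myh2, Myh4, Actn3, Tnnc2 and Myl1. These encode the skeletal alpha-actin of the thin filament, fast myosin heavy chains, the fast-fibre alpha-actinin of the Z disc, the calcium-binding troponin C of fast fibres and a myosin light chain. The list's median difference was 4.08 at 600 mm3 and -0.48 at day 9, where no gene of the list was separated in either direction and the median ran from -1.36 to 0.36 with 1 array left out, turning without sunitinib or vehicle mouse 2. Of the 17 promoters that RefSeq holds for 14 of the list genes, 9 (52.9%), of 8 genes, carried the E-box CAGCTG, the same letters on both strands and a sequence bound by the muscle regulators MyoD and myogenin, within 250 bases upstream of the start site, against 13% of all 32851 promoters. The MEF2 core, CTA, any 4 bases and TAG, searched on both strands, was in 0 of the 17 and in 3.2% of all promoters. The promoters of 3 genes that rose are printed from RefSeq (GRCm38.p6), 120 bases each on the strand of the gene with the E-box in capitals, to show the match: Acta1 at chr8:123894906-123895025 (minus strand), Myh4 at chr11:67237688-67237807 (plus strand) and Myl1 at chr1:66945187-66945306 (minus strand).
Acta1: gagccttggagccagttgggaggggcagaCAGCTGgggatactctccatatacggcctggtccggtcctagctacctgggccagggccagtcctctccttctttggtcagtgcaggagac
Myh4: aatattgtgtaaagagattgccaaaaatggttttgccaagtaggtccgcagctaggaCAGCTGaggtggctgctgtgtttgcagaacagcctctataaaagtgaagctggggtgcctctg
Myl1: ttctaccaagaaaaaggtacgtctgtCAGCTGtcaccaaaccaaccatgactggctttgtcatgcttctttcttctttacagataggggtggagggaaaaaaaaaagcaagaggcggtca

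The per-array values show where the difference arose. Acta1 stood at 5.65 and 5.14 in the sunitinib mice and 5.51 and 7.01 in the vehicle mice at day 9, and at 3.95 and 2.80 in the sunitinib mice against -1.82 and -2.12 in the vehicle mice at 600 mm3. Thus the gene was bright on 6 arrays and low on the vehicle pair at 600 mm3. Its difference at 600 mm3 was 5.35 (SE 0.56, adjusted p = 0.0228), a 40.7-fold rise. Myh4 was at 5.87 and 4.15 against 3.98 and 6.61 at day 9, and at 2.64 and 1.30 against -6.90 and -8.68 at 600 mm3. Where every array of a group was not well above background, as here, a fold is a lower bound, set against the dimmest signal that was well above background on those arrays: Myh4 rose at least 443-fold at 600 mm3 (log2 difference 9.76, SE 1.03, adjusted p = 0.0228). The same holds for every fold given below as at least a value. Myl1 rose 108-fold (6.75, SE 0.78, adjusted p = 0.0319), Actn3 48.2-fold (5.59, SE 0.73, adjusted p = 0.0481), Tnnc2 43.9-fold (5.45, SE 0.72, adjusted p = 0.0481) and Myh2 26.0-fold (4.70, SE 0.42, adjusted p = 0.016). The other list genes ran from 0.63 for Pvalb, a calcium buffer of fast fibres (adjusted p = 0.892), to 5.95 for Myh8, a perinatal myosin (adjusted p = 0.0783). Ckm, the muscle creatine kinase, differed by 4.17 (adjusted p = 0.0944).

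Outside that list, other genes known from muscle fibres were among the 52 named genes that rose. Trim63, the ubiquitin ligase MuRF1 of muscle atrophy, was at 0.23 and 0.06 with sunitinib and 1.35 and 2.24 with vehicle at day 9, and at 1.33 and 0.10 against -8.95 and -7.57 at 600 mm3. Both vehicle arrays at 600 mm3 were far below the other 6. It rose at least 186-fold (8.98, SE 0.58, adjusted p = 0.0097), and a second Trim63 probe gave 7.55 (SE 0.62, adjusted p = 0.0116). Ttn, the giant spring protein of the sarcomere, was at 2.70 and 1.37 against 1.84 and 3.36 at day 9, and at 0.77 and -0.57 against -7.69 and -8.21 at 600 mm3, a rise of at least 121-fold (8.05, SE 0.69, adjusted p = 0.0151). Sln, which encodes sarcolipin, an inhibitor of the calcium pump of the sarcoplasmic reticulum, was at 4.33 and 3.37 against 3.47 and 4.60 at day 9, and at 1.28 and 0.77 against -6.91 and -6.08 at 600 mm3, 183-fold higher (7.52, SE 0.51, adjusted p = 0.0097). Each of these genes had the same shape, with the vehicle pair at 600 mm3 alone at the bottom. Myoz2, a Z disc protein, had the smallest adjusted p of the comparison (6.60, SE 0.31, adjusted p = 0.0038, at least 54.6-fold). Myog, the myogenic regulator myogenin, rose 21.9-fold (4.45, adjusted p = 0.0481), and Mymx, which fuses myoblasts, rose at least 33.8-fold (6.39, SE 0.44, adjusted p = 0.0097). Myot, Art1, Myom2, Csrp3 and the embryonic myosin Myh3 rose at least 66.7-fold, 74.1-fold, 137-fold, 61.0-fold and 9.25-fold. Capn3, a calpain of skeletal muscle, went the other way and passed as lower, with a difference between -3.6 and -3.2 when 1 array was left out.

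**Figure D2:**
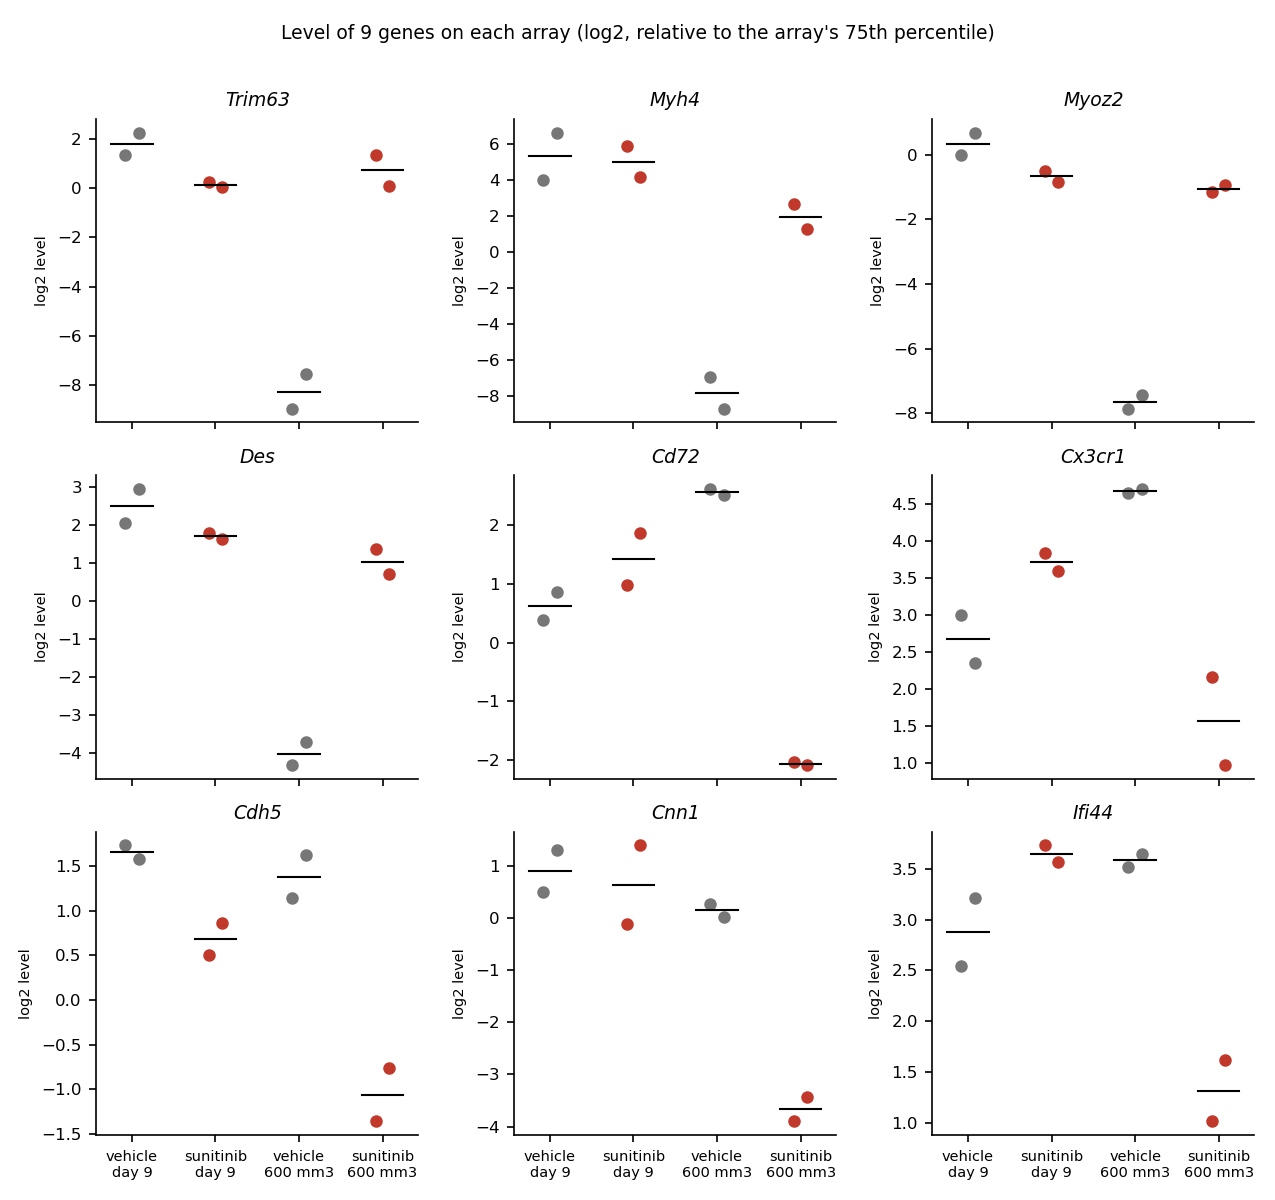
Level of 9 genes (log2 processed signal minus the array's 75th percentile) on each of the 8 arrays, by stage, with grey points for vehicle mice, red points for sunitinib mice and a line at each group mean. For Trim63, Myh4, Myoz2 and Des the vehicle pair at 600 mm3 lies below the other arrays, and for Cd72, Cx3cr1, Cdh5, Cnn1 and Ifi44 the sunitinib pair at 600 mm3 lies below the vehicle pair of that stage.

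Endothelial genes were lower with sunitinib, mainly at 600 mm3. Of 28 endothelial genes tested, 23 were below the vehicle arrays without overlap at 600 mm3 (24.8% of all named genes were) and 0 above, and 2 passed the test, Cdh5 and Ldb2, both lower (0.235% of named genes). At day 9, 8 of the 28 were below without overlap (14.7% of named genes), 0 above, and 0 passed. The list's median difference was -1.93 at 600 mm3 and -0.58 at day 9, and its day 9 value moved to -0.037 without sunitinib mouse 1 and to -1.07 without sunitinib mouse 2. Of the 28 genes, 7 were below without overlap at both stages, against 2.32% of all named genes. The skeletal muscle list moved at 600 mm3 over the same arrays, with mean levels of 1.16 and 0.33 with sunitinib against -3.07 and -3.46 with vehicle, and its part in the endothelial difference, and in those of the mural, leukocyte and interferon genes below, was not tested.

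Cdh5, the VE-cadherin of endothelial junctions, was at 0.51 and 0.87 with sunitinib and 1.73 and 1.57 with vehicle at day 9, and at -1.36 and -0.76 against 1.14 and 1.62 at 600 mm3. The sunitinib arrays were below the vehicle arrays at both stages and lowest at 600 mm3. The gene fell by 2.44 at 600 mm3 (SE 0.31, adjusted p = 0.0473), a 5.41-fold difference, and differed by -0.96 at day 9 (SE 0.31, adjusted p = 0.577). Ldb2, a cofactor of LIM transcription factors found in endothelium, was at -2.04 and -1.54 against -1.20 and -1.36 at day 9, and at -4.44 and -4.34 against -1.92 and -1.35 at 600 mm3. It fell 6.75-fold at 600 mm3 (-2.75, SE 0.29, adjusted p = 0.0231). Other endothelial genes with differences of this size fell short of the threshold, among them the adhesion molecule Icam2 (-3.37, adjusted p = 0.0691), the transcription factor Sox7 (-3.12, adjusted p = 0.0612), the junction protein Esam (-2.67, adjusted p = 0.061), the guidance receptor Robo4 (-2.16, adjusted p = 0.0781) and the secreted Egfl7 (-2.05, adjusted p = 0.0691). Pecam1, the antigen used to select endothelial cells in the study, was at -1.24 and -0.06 against -0.12 and 0.21 at day 9, and at -1.35 and -1.28 against -0.68 and -0.10 at 600 mm3. Only at 600 mm3 were its sunitinib arrays clear of the vehicle arrays, with a difference of -0.92 (SE 0.41, adjusted p = 0.482).

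**Figure D3:**
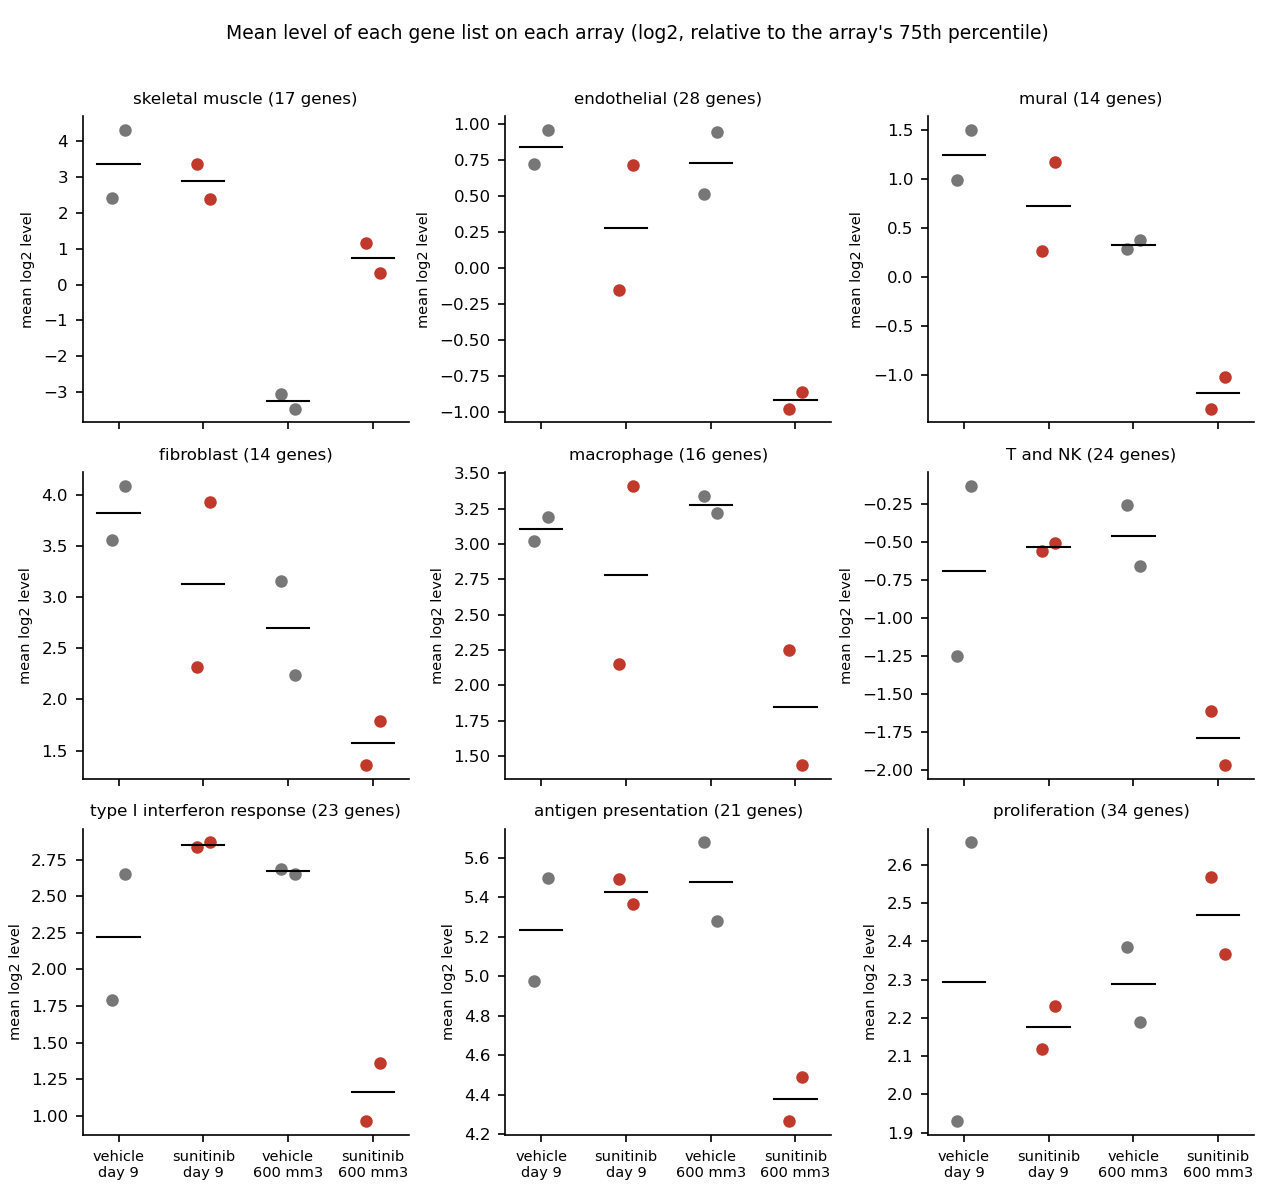
Mean level (log2 processed signal minus the array's 75th percentile) of the tested genes of 9 lists on each of the 8 arrays, by stage, with grey points for vehicle and red points for sunitinib. At 600 mm3 the sunitinib arrays are below the vehicle arrays for the endothelial, mural, fibroblast, macrophage, T and NK, interferon and antigen presentation lists and above them for skeletal muscle, and for each of these lists the group means lie closer together at day 9.

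Of the receptors that sunitinib blocks, none of the 8 tested passed at either stage; 5 were below without overlap at 600 mm3 (24.8% of named genes) and 2 at day 9 (14.7%), and the median was -1.38 at 600 mm3 and -0.39 at day 9. Kit, the receptor of stem cell factor, was at -2.04 and -0.96 against -0.58 and -0.65 at day 9 and at -3.04 and -2.44 against -0.41 and -0.16 at 600 mm3 (difference -2.45, SE 0.39, adjusted p = 0.0709). Pdgfrb, the pericyte PDGF receptor, was at 1.08 and 1.84 against 1.49 and 1.99 at day 9 and at -0.93 and -0.44 against 1.71 and 1.27 at 600 mm3 (-2.17, SE 0.36, adjusted p = 0.0753). For both genes the sunitinib pair at 600 mm3 was below the other 6 arrays. Csf1r, the macrophage receptor, was at 5.39 and 6.23 against 6.42 and 6.21 at day 9 and at 5.61 and 5.00 against 6.69 and 6.75 at 600 mm3 (-1.41, SE 0.35, adjusted p = 0.196). Flt3 and Flt4 differed at 600 mm3 by -1.72 (adjusted p = 0.529) and -1.35 (adjusted p = 0.451).

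Kdr, the main VEGF receptor of endothelium, did not follow the other endothelial genes on its brightest probe, which read 3.90 and 2.85 with sunitinib against 4.11 and 3.89 with vehicle at day 9, and 3.22 and 4.34 against 3.02 and 3.48 at 600 mm3. Its groups overlapped at both stages, with a difference of 0.53 at 600 mm3 (adjusted p = 0.723). A second Kdr probe read -2.07 and -1.08 against -0.03 and 0.22 at 600 mm3, a difference of -1.67 (SE 0.39, adjusted p = 0.17), so the probes of this gene disagreed in direction. Flt1, the VEGF receptor that also acts as a decoy, was at 2.95 and 2.39 against 2.15 and 2.62 at day 9 and at 2.11 and 0.94 against 2.11 and 1.82 at 600 mm3 (-0.44, adjusted p = 0.743). Pdgfra, the fibroblast PDGF receptor, stayed between 1.01 and 1.96 on all 8 arrays, with differences of -0.13 at day 9 and -0.07 at 600 mm3.

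Among the ligands of these receptors, 0 of 16 passed at either stage, and the median differences were 0.09 at day 9 and 0.22 at 600 mm3. Vegfa, the ligand of Kdr and Flt1, was at 2.12 and 3.07 against 3.08 and 2.61 at day 9 and at 1.63 and 2.27 against 1.78 and 1.61 at 600 mm3, overlapping at both stages (-0.25 and 0.26, adjusted p at 600 mm3 0.846). A second Vegfa probe did not overlap at either stage, with 0.82 and 0.81 against 1.35 and 1.42 at day 9 (-0.57, adjusted p = 0.755) and 0.44 and 1.71 against -0.35 and -0.08 at 600 mm3 (1.29, SE 0.40, adjusted p = 0.292). The Csf1r ligand Il34 differed by 0.87 at 600 mm3 (adjusted p = 0.299) and the Pdgfrb ligand Pdgfd by -1.84 (adjusted p = 0.189). Of 22 genes of the VEGF response and of tip cells, the leading cells of a sprout, 0 passed; 11 were below without overlap at 600 mm3 and 5 above (24.8% and 28.3% of named genes). Esm1, a tip cell secreted protein, differed by -3.25 (adjusted p = 0.196), the apelin receptor Aplnr by -2.56 (adjusted p = 0.071) and the basement membrane protein Nid2 by -4.48 (adjusted p = 0.109). The list's median, -0.19, was closer to 0 than that of the endothelial markers.

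**Figure D4:**
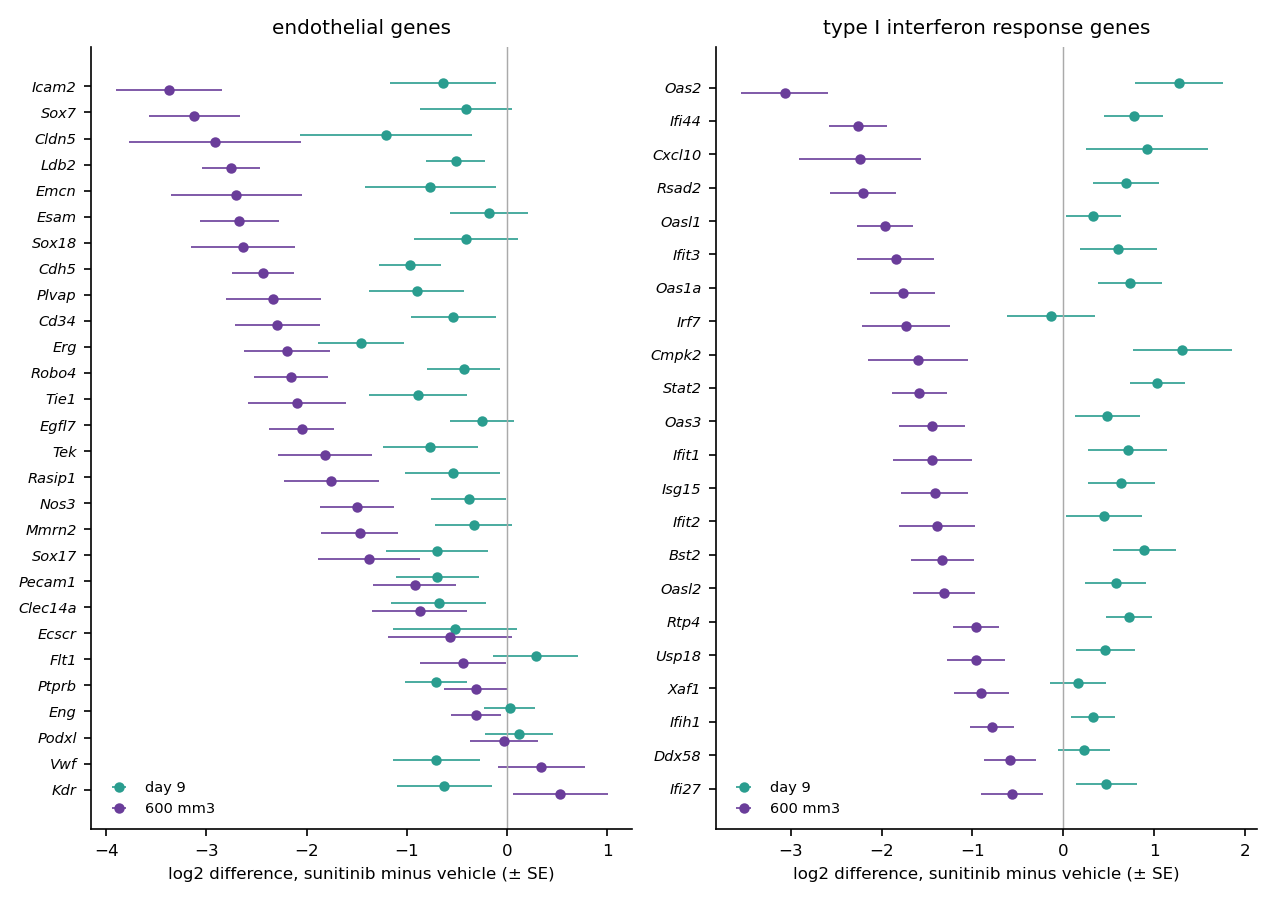
Sunitinib minus vehicle difference (log2, points, with bars of 1 SE) of each of 28 endothelial and 22 of the 23 interferon response genes at day 9 (green) and at 600 mm3 (purple). Most endothelial genes lie below 0 at both stages and farther below at 600 mm3, while the interferon genes shown lie below 0 at 600 mm3 and, except for Irf7, above 0 at day 9.

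Mural genes, which mark pericytes and vascular smooth muscle, were lower at 600 mm3 with 1 exception. Of 14 tested, 13 were below without overlap (24.8% of named genes) and 2 passed as lower, Cnn1 and Abcc9; Des passed as higher. Cnn1, the smooth muscle calponin, was at -0.12 and 1.39 against 0.50 and 1.30 at day 9 and at -3.90 and -3.43 against 0.27 and 0.01 at 600 mm3. It fell by 3.80 (SE 0.51, adjusted p = 0.0481), 14.0-fold, and only the sunitinib pair at 600 mm3 was low. Abcc9, the sulphonylurea receptor of pericyte potassium channels, was at -0.32 and -0.48 against -0.26 and 0.19 at day 9 and at -3.13 and -2.91 against -1.16 and -0.65 at 600 mm3, a fall of 4.32-fold (-2.11, SE 0.29, adjusted p = 0.0481). Des encodes desmin, an intermediate filament of pericytes and of skeletal muscle alike, and it moved like the muscle genes, at 1.78 and 1.63 against 2.05 and 2.94 at day 9 and 1.35 and 0.70 against -4.31 and -3.72 at 600 mm3. It rose 33.0-fold (5.04, SE 0.39, adjusted p = 0.0113). Acta2, Rgs5 and Tagln differed by -3.15, -3.24 and -2.47 at 600 mm3, with adjusted p between 0.0941 and 0.181. The list's median was -2.07 at 600 mm3 and -0.56 at day 9, where 3 of the 14 were below without overlap.

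No fibroblast or basement membrane gene passed the test. Of 14 fibroblast genes, 10 were below without overlap at 600 mm3 and 0 above (24.8% and 28.3% of named genes), with a median of -1.32; Lum, a collagen-binding proteoglycan, differed by -2.51 (adjusted p = 0.25), Col1a1 by -2.04 (adjusted p = 0.281) and Thy1 by -1.85 (adjusted p = 0.116). Of 17 basement membrane and collagen genes, 9 were below and 4 above without overlap, and 9 had a lower and 8 a higher mean, with Lama4 of the vessel laminin at -3.13 (adjusted p = 0.126) and Nid1 at -2.11 (adjusted p = 0.16). The fibroblast list read -0.70 at day 9, a value that became 0.032 without sunitinib mouse 1 and -1.51 without sunitinib mouse 2, so its day 9 direction rested on 1 mouse.

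Leukocyte genes were among those that fell at 600 mm3. Every one of the 16 macrophage genes had a lower mean with sunitinib at 600 mm3, 13 of them without overlap (24.8% of named genes) and 1, Cx3cr1, past the test (0.235% of named genes fell). Cx3cr1, the fractalkine receptor of monocytes and macrophages, was at 3.84 and 3.60 with sunitinib and 3.00 and 2.35 with vehicle at day 9, and at 2.15 and 0.97 against 4.65 and 4.70 at 600 mm3. The sunitinib arrays were the higher pair at day 9 and the lower pair at 600 mm3. It fell by 3.11 at 600 mm3 (SE 0.42, adjusted p = 0.0481), 8.64-fold, and its difference of stages was -4.16 (adjusted p = 0.109). Short of the threshold were Adgre1, which encodes F4/80 (-2.09, adjusted p = 0.143), the scavenger receptor Msr1 (-2.01, adjusted p = 0.0889), the Fc receptor Fcgr1 (-1.88, adjusted p = 0.13) and the complement gene C1qc (-1.59, adjusted p = 0.0954). The list's median was -1.50 at 600 mm3 and -0.39 at day 9, and the day 9 value was 0.30 without sunitinib mouse 1 and -0.78 without sunitinib mouse 2.

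Outside the marker lists, these named genes fell at 600 mm3. Cd72, a lectin-like receptor of B cells and other antigen-presenting cells, was at 0.98 and 1.87 against 0.39 and 0.86 at day 9, and at -2.04 and -2.08 against 2.62 and 2.51 at 600 mm3. It was above vehicle at day 9 and lowest of all on the sunitinib pair at 600 mm3. It fell by 4.62 (SE 0.34, adjusted p = 0.00996), and a second Cd72 probe gave -4.87 (adjusted p = 0.00873). Slc11a1, the phagosomal metal transporter of macrophages, fell by 2.40 (adjusted p = 0.0228), from 2.51 and 2.29 with vehicle to 0.15 and -0.15 with sunitinib, after 0.21 and 0.57 against 0.69 and 0.84 at day 9. Aif1, a marker of macrophages and microglia, was at 4.89 and 5.11 against 4.53 and 5.40 at day 9 and at 3.08 and 2.73 against 6.02 and 5.74 at 600 mm3, a fall of 2.98 (adjusted p = 0.0286). For both genes the vehicle tumours at 600 mm3 were higher, and the sunitinib tumours lower, than any tumour of day 9. Gpr34, a lysophosphatidylserine receptor, fell by 3.09 (adjusted p = 0.0214) and Klrb1b, a killer cell lectin receptor, by 3.51 (adjusted p = 0.0423). Arl5c and Zmynd15 also passed as lower, with differences of -2.81 to -2.63 and -3.25 to -2.79 when 1 array was left out. Lpar3, a lysophosphatidic acid receptor that was not well above background on the sunitinib pair, fell at least 11.9-fold (adjusted p = 0.032). Aif1 was picked out for mention after its values were seen.

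Lymphocyte, dendritic and mast cell lists had the same direction at 600 mm3 with no gene past the test. Of 24 T and NK genes, 19 were below without overlap and 2 above (24.8% and 28.3% of named genes), with a median of -1.39. At day 9 it was 0.19, and -0.43 without vehicle mouse 1. The 2 above were Cd4 (0.66) and the transcription factor Eomes (0.68). The activating receptor Klrk1 differed by -3.60 (adjusted p = 0.0723), the T cell receptor chain Cd3d by -1.82 (adjusted p = 0.0941) and interferon gamma, Ifng, by -2.38 (adjusted p = 0.183). Of 12 dendritic genes, 7 were below and 3 above without overlap; Itgax, which encodes CD11c, differed by -3.98 (adjusted p = 0.0551). Of 10 mast cell genes, 8 were below without overlap, with a median of -2.77, and here 1 vehicle tumour stood out: the mucosal protease Mcpt2 was at -5.90 and -5.36 with sunitinib against 2.66 in vehicle mouse 3 and -0.87 in vehicle mouse 4, after -1.30 and -0.07 against -2.61 and -0.99 at day 9 (-6.53 at 600 mm3, adjusted p = 0.077). Neutrophil genes went no single way at 600 mm3, with 2 of 17 above, 1 below and a median of -0.01. At day 9, 6 of the 17 were below without overlap and 2 above (14.7% and 20.6% of named genes), and 0 passed. Their day 9 median was -0.63 (-0.99 to -0.096 with 1 array left out).

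Antigen presentation genes had the direction of the leukocyte lists. Of 21 genes, 16 were below without overlap at 600 mm3 (24.8% of named genes) and 0 above, with a median of -0.95, whereas at day 9 4 were above, 3 below (20.6% and 14.7% of named genes) and the median was 0.25, or -0.048 without vehicle mouse 1. The class II genes H2-Ab1, H2-Eb1 and H2-Aa, which present peptides to CD4 T cells, differed at 600 mm3 by -1.53 (adjusted p = 0.061), -1.68 (adjusted p = 0.0641) and -2.45 (adjusted p = 0.105), and their chaperone Cd74 by -1.63 (adjusted p = 0.0709). Another H2-Ab1 probe passed the test at 600 mm3 (-1.77, SE 0.23, adjusted p = 0.0428). The class I genes H2-K1 and B2m, present in nearly all cells, differed by -0.27 and -0.26.

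Interferon response genes lay above vehicle at day 9 and below it at 600 mm3. Of 23 tested, 15 were above the vehicle arrays without overlap at day 9 and 0 below, while at 600 mm3 all 23 were below without overlap and 0 above; named genes as a whole were above at day 9 in 20.6% and below at 600 mm3 in 24.8%. The same 15 were above at day 9 and below at 600 mm3, a pattern of 6.73% of named genes. No gene of the list passed the test at either stage or for the difference of stages. The median difference was 0.64 at day 9 and -1.44 at 600 mm3. At day 9 the median was 0.22 without vehicle mouse 1 and 1.07 without vehicle mouse 2. Vehicle mouse 1 had the lowest list mean of its stage, 1.79 against 2.65 in vehicle mouse 2 and 2.84 and 2.87 in the sunitinib mice. At 600 mm3 the list means were 0.96 and 1.36 with sunitinib against 2.69 and 2.65 with vehicle.

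Many genes induced by type I interferon carry the interferon-stimulated response element in their promoters. Its core, GAAA, any 2 bases and GAAA, was searched on both strands of the 250 bases upstream of the start site, with overlapping matches counted, and was in 9 of the 19 promoters (47.4%) that RefSeq holds for 18 of the list genes, against 2.98% of all 32851 promoters. These were Isg15, Ifit1, Ifit3, Oas1a, Oas3, Rsad2, Bst2, Stat2 and Cxcl10. The promoters of 4 are printed from RefSeq (GRCm38.p6), 120 bases each on the strand of the gene with the matches in capitals, where TTTC, any 2 bases and TTTC is the core read on the other strand; they show 1 or 2 matches in genes with the same course over the arrays. They lie at chr12:26456508-26456627 (Rsad2, minus strand), chr19:34583352-34583471 (Ifit3, plus strand), chr5:120907526-120907645 (Oas1a, minus strand) and chr10:128270248-128270367 (Stat2, plus strand).
Rsad2: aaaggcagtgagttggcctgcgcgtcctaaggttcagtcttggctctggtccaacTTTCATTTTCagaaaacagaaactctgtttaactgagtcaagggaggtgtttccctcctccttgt
Ifit3: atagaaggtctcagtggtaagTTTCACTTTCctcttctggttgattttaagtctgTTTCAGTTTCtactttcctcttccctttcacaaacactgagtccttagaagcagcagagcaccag
Oas1a: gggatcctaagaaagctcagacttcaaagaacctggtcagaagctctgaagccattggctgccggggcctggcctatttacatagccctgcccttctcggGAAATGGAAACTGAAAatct
Stat2: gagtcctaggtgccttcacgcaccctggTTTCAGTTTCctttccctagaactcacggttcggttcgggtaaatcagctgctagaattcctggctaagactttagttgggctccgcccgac

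Rsad2, the antiviral enzyme viperin, was at 0.32 and 0.67 with sunitinib against -0.64 and 0.27 with vehicle at day 9, and at -2.37 and -1.81 against 0.11 and 0.12 at 600 mm3 (-2.20, SE 0.36, adjusted p = 0.074). Ifit3, which holds viral RNA with other IFIT proteins, was at 1.92 and 1.99 against 0.78 and 1.92 at day 9, and at -0.33 and 0.45 against 1.97 and 1.85 at 600 mm3 (-1.85, SE 0.42, adjusted p = 0.161). Both sunitinib arrays of each gene were above vehicle at day 9, narrowly so against vehicle mouse 2, and well below it at 600 mm3. Oas1a, a sensor of double-stranded RNA, was at 5.76 and 5.68 against 4.51 and 5.47 at day 9, and at 3.50 and 3.88 against 5.31 and 5.60 at 600 mm3 (-1.77, SE 0.35, adjusted p = 0.113). Stat2 itself was at 4.09 and 3.95 against 2.65 and 3.32 at day 9, and at 2.22 and 2.02 against 3.91 and 3.50 at 600 mm3 (-1.58, adjusted p = 0.1). The smallest adjusted p of the list at 600 mm3 belonged to Ifi44, at 3.73 and 3.57 against 2.54 and 3.21 at day 9 and at 1.02 and 1.62 against 3.52 and 3.64 at 600 mm3. Its difference was 0.77 at day 9 (SE 0.32, adjusted p = 0.642), -2.26 at 600 mm3 (SE 0.32, adjusted p = 0.0551) and -3.03 between stages (adjusted p = 0.118). Oas2 had the lowest value at 600 mm3, -3.07 (SE 0.48, adjusted p = 0.0691). Only Irf7, the interferon-induced regulator, had a lower mean with sunitinib at day 9 (-0.14).

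On the brightest probe of each gene, no erythroid, B and plasma cell or eosinophil gene passed at either stage. Another probe of the erythroid gene Ermap passed as lower at 600 mm3 (-1.94, SE 0.25, adjusted p = 0.0408). Of 8 erythroid genes, 7 were below without overlap at day 9 (14.7% of named genes) and 5 at 600 mm3, 5 of them at both (2.32% of named genes), with medians of -1.01 and -1.77. The alpha-globin Hba-a1 was at 4.82 and 5.07 against 5.76 and 6.13 at day 9 and at 2.87 and -0.06 against 5.17 and 4.71 at 600 mm3, lower with sunitinib at both stages (-3.54 at 600 mm3, adjusted p = 0.166). Of 12 B and plasma cell genes, 4 were below without overlap at both stages (2.32% of named genes); at 600 mm3 5 were below and 4 above, 6 had a higher and 6 a lower mean, and the median was -0.049 (0.20 under normexp). Jchain, the joining chain of secreted antibody, was at -2.07 and 0.01 against 2.21 and 1.89 at day 9 and at -5.03 and -6.05 against -1.66 and -3.47 at 600 mm3 (-3.08 and -2.97). Eosinophil genes had medians of -1.73 at day 9 (-2.99 to -0.40 with 1 array left out) and -0.26 at 600 mm3 (0.14 under normexp).

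Tumour epithelial, proliferation, hypoxia, glycolysis and immediate early genes gave small medians. Of these lists only the epithelial one marks tumour cells, and in bulk tissue the others are not particular to them. The 16 tumour epithelial genes had medians of 0.05 at day 9 and -0.08 at 600 mm3, with 0 past the test, and the day 9 sign turned under quantile normalization and in the deposited values. Epcam, the epithelial adhesion molecule, was at 4.96 and 4.94 against 4.35 and 4.80 at day 9 and at 3.84 and 4.79 against 5.31 and 4.68 at 600 mm3, overlapping at 600 mm3. Of 34 proliferation genes, 14 were above without overlap at 600 mm3 and 2 below (28.3% and 24.8% of named genes), with a median of 0.20 and 0 past the test; the cycle antigen Mki67 differed by 0.02 at day 9 and 0.09 at 600 mm3, and the topoisomerase Top2a by -0.37 and 0.41. Hypoxia genes had medians of -0.29 and 0.27, with 10 of 29 above at 600 mm3 and 2 below; the carbonic anhydrase Car9 differed by -0.18 and 0.85 (adjusted p at 600 mm3 0.397) and the glucose transporter Slc2a1 by -0.59 and 0.82. That list's sign at 600 mm3 turned to -0.065 without sunitinib mouse 4. Glycolysis genes had medians of -0.29 and 0.40, with 9 of 20 above and 2 below at 600 mm3. Immediate early genes were above without overlap in 13 of 23 at 600 mm3 and below in 3, with a median of 0.28. Of that list 0 genes passed. Fosl1, an AP-1 subunit outside the list and picked out after its values were seen, rose by 1.66 at 600 mm3 (adjusted p = 0.0481).

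On the brightest probe of each gene, the lists not yet named had no gene past the test at either stage. Their counts without overlap read against the shares of named genes given above, 20.6% above and 14.7% below at day 9 and 28.3% and 24.8% at 600 mm3. For Clec1b of the platelet list, another probe passed at 600 mm3 (3.29, SE 0.30, adjusted p = 0.0144) and for the difference of stages (4.43, adjusted p = 0.0284). A further Clec1b probe gave 1.13 at 600 mm3 (adjusted p = 0.355). At 600 mm3 Notch genes had a median of -0.53, with 7 of 15 below without overlap and 2 above, and the vessel receptor Notch4 read -1.73 (adjusted p = 0.249). Mesenchymal transition genes had a median of -0.34, with 8 of 17 below and 2 above. The regulator Snai2 was at -2.74 and -0.94 against -2.41 and -1.23 at day 9 and at -5.10 and -4.58 against -0.64 and -1.44 at 600 mm3 (-3.80, adjusted p = 0.0815), lowest on the sunitinib pair at 600 mm3. Cholesterol and fatty acid synthesis genes were above in 10 of 26 at day 9 and below in 4, and at 600 mm3 above in 1 and below in 8, with medians of 0.18 and -0.25 (0.057 at 600 mm3 without vehicle mouse 3). Inflammatory cytokines had medians of 0.24 and -0.16, whose signs turned with 1 array left out (-0.15 to 0.62 at day 9, -0.40 to 0.17 at 600 mm3); the eosinophil attractant Ccl11 read -3.76 at 600 mm3 (adjusted p = 0.198) and the growth factor Csf2 read 1.94 (adjusted p = 0.144). Angiogenic factors other than VEGF, named for their part in escape from VEGF blockade, had medians of -0.18 (0.11 at most with 1 array left out) and 0.21 (-0.14 without sunitinib mouse 4), with 5 of 21 above and 5 below at 600 mm3, near those shares; hepatocyte growth factor, Hgf, read -2.14 (adjusted p = 0.196) and the TIE2 ligand Angpt1 read 1.76 (adjusted p = 0.383). Lysosome genes had medians of -0.10 and -0.11, with 11 of 24 below and 7 above at 600 mm3, and Gpnmb, a glycoprotein of lysosome-rich phagocytes, had the largest difference for its error, 2.27 (SE 0.34, adjusted p = 0.0633). Metalloproteinases and their inhibitors had medians of -0.03 and -0.19, and ER and amino acid stress genes 0.02 and 0.06. At 600 mm3 the smaller lists read 0.44 for 11 adipocyte genes (-0.23 without vehicle mouse 4, 0.016 in the deposited values), 0.42 for 8 keratinocyte genes (0.067 in the deposited values), 0.15 for 9 peripheral nerve genes, 0.05 for 11 mammary secretory genes, 0.01 for 9 platelet genes and -0.62 for 4 lymphatic endothelial genes.

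**Figure D5:**
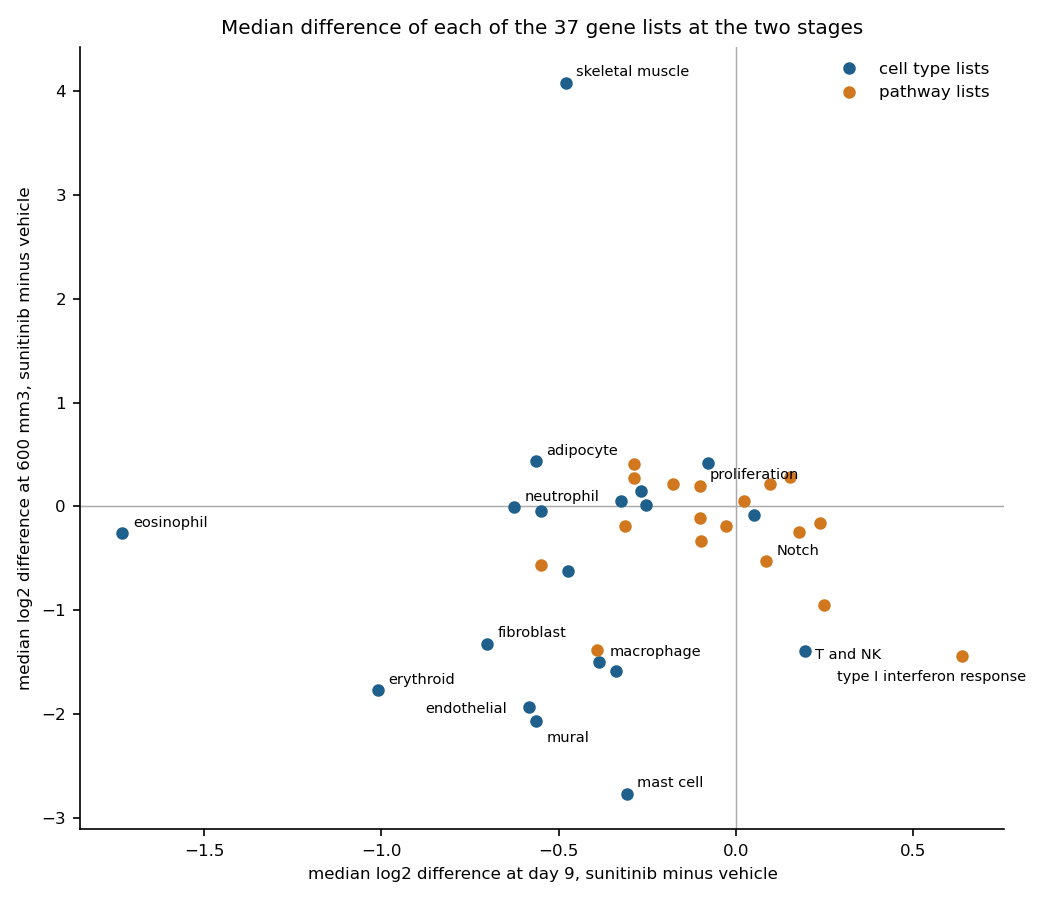
Median sunitinib minus vehicle difference (log2) of the tested genes of each of 37 lists at day 9 (x axis) and at 600 mm3 (y axis), with cell type lists in blue and pathway lists in orange. Skeletal muscle, at 4.08, is alone far above 0 on the y axis, and the mast cell, mural, endothelial, erythroid, macrophage, T and NK, fibroblast and interferon lists lie lowest on it, with dendritic genes and the target receptors beside them.

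Between the stages, 14 named genes differed by the test of the difference itself, 12 with a higher effect at 600 mm3 (0.0688% of named genes) and 2 with a lower one (0.0115%). None of the 17 genes of the skeletal muscle list passed this test. Genes that did, with a higher effect at 600 mm3, were Trim63 (10.63, adjusted p = 0.0307), Myot, Art1, Sln (7.70, adjusted p = 0.0327), Myoz2 (7.60, adjusted p = 0.0162), Mymx and Des (5.83, adjusted p = 0.0327). Hspb7, a small heat shock protein of heart and muscle, was at -0.83 and -1.30 against 0.07 and 0.02 at day 9 and at -1.30 and -1.77 against -5.83 and -5.29 at 600 mm3. Its vehicle pair was above sunitinib at day 9 and far below it at 600 mm3, and the effects differed by 5.13. Mustn1, a gene of musculoskeletal tissue, differed by 5.10. Gli1, the transcription factor and target of hedgehog signalling, was at -4.35 and -4.33 against -3.22 and -3.69 at day 9 and at -3.92 and -4.01 against -7.03 and -6.94 at 600 mm3, a difference between stages of 3.91 (adjusted p = 0.0307). Bcl2l15, a BCL2 family member, was at -2.37 and -2.63 against -0.85 and -1.25 at day 9 and at 1.29 and 0.54 against -2.97 and -2.91 at 600 mm3 (5.30, adjusted p = 0.0307). The defensin Defa29 was at -7.81 and -7.95 against -4.92 and -5.00 at day 9 and at -4.42 and -4.14 against -6.84 and -7.47 at 600 mm3 (5.79, adjusted p = 0.0243). For Gli1, Bcl2l15 and Defa29 sunitinib was the lower pair at day 9 and the higher pair at 600 mm3. Cd72 and Btn2a2, a butyrophilin that restrains T cells, were the 2 with a lower effect at 600 mm3: Btn2a2 was at -5.10 and -4.84 against -7.40 and -8.18 at day 9 and at -7.11 and -6.66 against -5.24 and -4.92 at 600 mm3 (-4.63, SE 0.47, adjusted p = 0.043).

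At day 9 no named gene passed. Closest among higher genes were Olfr446, an olfactory receptor (2.45, adjusted p = 0.213), Btn2a2 (2.82, adjusted p = 0.213), the globin Ngb (1.94, adjusted p = 0.304) and Nlrp14 (1.82, adjusted p = 0.392). Among lower genes they were Defa29 (-2.92, adjusted p = 0.165), the serpin Serpinb10 (-3.72, adjusted p = 0.213), Cd5l (-5.68, SE 0.70, adjusted p = 0.235) and the carbonic anhydrase Car6 (-2.13, adjusted p = 0.304). Cd5l, a secreted protein of tissue macrophages, was at -5.57 and -4.08 with sunitinib against 0.74 and 0.97 with vehicle at day 9, and between -7.03 and -5.35 on the 4 arrays at 600 mm3. It was high on the vehicle pair at day 9 alone. Under normexp background correction Cd5l passed at day 9 (adjusted p = 0.000771).

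For the mean of both stages, the smallest adjusted p, 0.120, was shared by genes that rose at 600 mm3, among them Sln (3.67), Myom2 (3.89), Myot (3.56), Art1 (3.23), Mymx (2.97) and Myh3 (1.89), and by Olfr446 (1.76) and the small GTPase Arl5c (-1.79). Below them came Gpr34 (-1.81), Capn3 (-1.77), Cdh5 (-1.70) and Ldb2 (-1.63). Cdh5 was below vehicle without overlap at both stages and had an adjusted p of 0.165 for the mean. The endothelial list had a mean-of-stages median of -1.22, the mural list -1.23 and the interferon list, whose stages opposed each other, -0.37.

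Bulk tumours of sensitive sunitinib mice and of vehicle mice were also taken at 1300 mm3, 4 of each, and share no sample with the small tumours. Their arrays lay on another slide than the small tumours, and there too a position index separated sunitinib from vehicle arrays. The large tumours are labelled as a bulk fraction, by the protocol the tissue left after selection of PECAM-1-positive cells. The small ones are labelled whole tumour, and the part of this difference in the values below, endothelial ones included, was not tested. The effect in those large tumours differed from the mean effect in small tumours for 2 of 41383 features (0.00483%), with 3746 at an unadjusted p under 0.05, and 1 was a named gene (0.00553% of 18074): Avpr1b, a vasopressin receptor that was dim in the small tumours (1.97, SE 0.24, adjusted p = 0.0387). Avpr1b was low in the large tumours as well, with mean levels of -5.06 in sensitive and -6.48 in vehicle mice. No gene of the 37 lists passed. The endothelial median was -0.70 in large tumours and -1.22 for the mean of stages in small ones, and the median of the gene-by-gene differences, large minus small, was 0.28. The interferon medians were 0.01 and -0.37, with a median gene-by-gene difference of 0.44. The skeletal muscle medians were -0.05 and 1.55, with a median gene-by-gene difference of -1.94. For T and NK genes they were 0.90 and -0.65, with a median gene-by-gene difference of 1.47. No test showed these list genes to differ between large and small tumours.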

How the data were processed

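The members and the gene lists were chosen with earlier results of these data known. RNA of each tumour was hybridised to a 1-colour Agilent whole mouse genome array, and the deposited scanner files hold intensity values made with Feature Extraction 10.7.3.1 per the file headers (9.1 per the submitters' processing notes). The authors' deposited table holds linear intensity values of the same arrays, near quantile-normalized, with the method and centring not given in the sources used here and column medians of 120.0 to 125.6. It served as an alternative.

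Levels are log2 processed signal minus the array's 75th percentile. Control spots and 99 to 147 outlier spots per array were left out. Of 55681 probes, 26582 were named through RefSeq accessions (GRCm38.p6), giving 20145 genes; a gene was represented by its brightest probe over all arrays of the study (5370 had more than 1), and other probes were counted unnamed. Features well above background on at least 2 of the 8 arrays entered a fit of 1 mean per group (limma 3.58.1, R 4.3.3; 4 residual degrees of freedom), adjusted by the Benjamini-Hochberg method at 0.05. The script was tested on simulated data. Replicates are separate mice, 2 per group, and that number limits the precision. The main fit had no term for the mouse number, which was a block only in an alternative. Deviations of mice with the same number correlated at 0.167 (mice 1 and 2) and 0.107 (mice 3 and 4). With 2 arrays per group, the 2 numbers of a stage share 1 value by construction, so these values cannot show a pairing. The mouse number also is the array's other position index on the slide. Named genes were drawn, per comparison, from those with the smallest p in each direction (12 for the mean of stages, 4 for the others). To these came 3 of each list by p for the mean of stages, and fixed receptors, Vegfa and Pecam1. Not every gene that this rule picked is given in the text. Further genes of the lists and of the genes that passed at 600 mm3 were named after their values were seen. Lists are described by counts and medians. Alternatives covered background correction, normalization, the dim-probe filter, probes per gene, variance model, pairing, samples in the fit and each array left out. No probe coordinates were used. The values of 1 interferon response gene are not reported here singly.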

Additional observations from a re-analysis of the deposited data

Results flagged for a closer look

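The 14 named genes below had effects of sunitinib that differed between 600 mm3 and day 9 by the test of the difference itself. Each value is the log2 effect at 600 mm3 minus that at day 9, with dim levels entered as measured and not bounded. Higher at 600 mm3 were Trim63 (10.63), Myot (8.53), Art1 (8.00), Sln (7.70), Myoz2 (7.60), Mymx (6.83), Des (5.83), Defa29 (5.79), Bcl2l15 (5.30), Hspb7 (5.13), Mustn1 (5.10) and Gli1 (3.91). None of the 14 is in the skeletal muscle list. Lower at 600 mm3 were Btn2a2 (-4.63) and Cd72 (-5.42). With the mouse number as a block 0 of them passed. No group of small tumours had 4 or more arrays, so single arrays were not screened as outliers.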

How the results depend on the processing

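Each group had 2 arrays, so every stage effect rests on pairs of mice, and the number of calls moved widely with the setting. Of the 112 features called at 600 mm3, 84 were also called under normexp, 77 under quantile normalization, 85 in the deposited values and 109 with an intensity trend in the variance model; the cause of the changes in number was not tested. At 600 mm3 the calls numbered 315 under normexp (84 higher), 199 in the deposited values (54 higher), 59 with no filter on dim probes (40 higher), 231 with features well above background on every array (56 higher), 390 with the trend (113 higher), 31 with all 20 bulk arrays in the fit (4 higher) and 0 with the replicate block. In alternatives chosen after seeing the data they numbered 271 with adjustment over named genes alone (84 higher) and 431 with the 4 arrays of the stage alone (133 higher). The share of higher calls, 52.7%, was thus 26.7% under normexp and 27.1% in the deposited values. For the difference of stages the calls numbered 48 under normexp, 1 with no filter, 11 with every array above background, 64 with the trend, 0 with the replicate block, 2 with all 20 bulk arrays and 34 over named genes alone, against 18. For the mean of stages they numbered 9 under normexp, 1 in the deposited values and 9 with the trend, against 0, and stayed 0 in the additive fit and without a stage term. For day 9 they numbered 2 in the deposited values and 0 with no filter, every array above background, the replicate block, all 20 bulk arrays, named genes alone or the stage's arrays alone, against 1. For large minus small tumours they numbered 1 under normexp and over named genes alone, and 0 under quantile normalization, in the deposited values, with no filter, with every array above background and with the trend, against 2.

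Leaving out 1 array gave 0 to 2 calls for the mean of stages, 0 to 1 at day 9, 0 to 296 at 600 mm3 (0 without vehicle mouse 3; 3, 3 and 5 without vehicle mouse 4, sunitinib mouse 3 and sunitinib mouse 4; 296 without either sunitinib mouse of day 9), 0 to 11 for the difference of stages (0 without vehicle day 9 mouse 1 or any array of 600 mm3, 3 and 8 without sunitinib day 9 mouse 1 and mouse 2) and 0 to 26 for large minus small tumours (26 without vehicle mouse 2 of 1300 mm3). A lone array was then assumed to vary like the other groups. The row of the array on the slide as a block is the same fit as the replicate block.

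Calls of single genes changed too over the alternatives, arrays left out included. At 600 mm3 Cdh5 lost its call in 9 of 19 and Ldb2 in 7 of 19, while Kit and Pdgfrb each gained one in 8 of 19. For the difference of stages Btn2a2 lost its call in 14 of 17 and Bcl2l15 in 12 of 18. For large minus small tumours Avpr1b lost its call in 18 of 23. Small differences of single genes changed sign. Over arrays left out, the mean of stages ran from -0.33 to 0.23 for Kdr, -0.37 to 0.21 for Flt1, -0.34 to 0.14 for Pdgfra and -0.23 to 0.24 for Vegfa (-0.022 under quantile normalization). At 600 mm3 it ran from -0.030 to 1.09 for Kdr (-0.57 with the mean of its probes), -1.02 to 0.14 for Flt1, -0.55 to 0.40 for Pdgfra and -0.065 to 0.58 for Vegfa, with the sign turned without sunitinib mouse 4 in each.

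The medians at 600 mm3 of the endothelial (-2.15 to -1.61 over arrays left out), mural (-2.26 to -1.73), macrophage (-1.84 to -1.19), interferon (-1.81 to -1.17) and skeletal muscle lists (3.44 to 4.62) kept their sign under all alternatives run.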
